A study of Sus scrofa with 48 samples.

Results

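The genes described here encode enzymes that attach ubiquitin to proteins or remove it, together with their closest partners. A list of 52 pig gene symbols was taken: E1 activating enzymes, E2 conjugating enzymes, cullins with the RING, adaptor and F-box proteins that work with them, other E3 ligases, and deubiquitinases. A member was measured through the probes that carry its symbol, and it was tested when a probe rose clearly over background on 9 or more of the 12 arrays in any group. The brightest such probe stood for the gene. Of the 52 genes, 49 had a named probe (117 probes), and 47 of these passed the filter with 110 probes, out of 11117 genes tested in all. By the gene names and accessions used here, no probe could be tied to *CUL5*, *RBX1* or *UBE2N*. A probe known as *RBX1* by its description alone, and one that the study's own annotation gives to *UBE2N*, were not used here, and the only probes of *FBXW11* and *NEDD4* were too dim.

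Subcutaneous adipose tissue (SCAT) was sampled from 48 growing pigs in a 2 x 2 design with 12 pigs in each of 4 groups and 1 array per pig. The pigs were Large White barrows (castrated males) and came from a pair of lines selected in opposite directions for residual feed intake (RFI), the feed eaten beyond what growth and maintenance predict, so that low RFI pigs are the more efficient ones. In each line, pigs received either a diet rich in fat and fiber (HF diet), with plant oils and wheat straw in place of part of the cereal starch, or a starch-rich diet low in fat and fiber (LF diet). The age on the labels was 132 days. Each line is 1 selected population, so a difference between lines cannot be told apart from other differences between these populations. A whole tissue was measured: fewer cells of a type and less RNA per cell cannot be told apart.

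Ubiquitin is a small protein that marks other proteins for degradation by the proteasome, for sorting or for a change of activity. An E1 enzyme activates it, an E2 enzyme carries it, and an E3 ligase selects the substrate, while deubiquitinases cut it off again. In muscle and fat the pathway takes part in protein turnover and in the control of insulin signalling, the cell cycle and adipocyte formation.

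Between 62.18% and 81.87% of the probes were well above background on an array, and no spot was saturated. The array median before centring lay between 8.14 and 8.78 (log2) on the 24 HF arrays and between 7.92 and 8.66 on the 24 LF arrays. Adipocyte markers were bright in every group (their summed level ranged from 11.2 to 11.7 over all arrays, 9 of 10 genes tested), and ADIPOQ, the adipokine gene that marks fat cells, averaged 9.20 on HF and 9.09 on LF arrays. Of the adipocyte markers, LEP and CIDEA were called lower under the HF diet, and of 7 fibroblast and matrix markers COL1A2 and PDGFRA were called higher. No macrophage, endothelial, lymphocyte, skeletal muscle or erythroid marker was called by diet. Whether the cell make-up of the tissue had a part in the changes below was not tested. Levels are given as log2 signal relative to the median kept probe of the same array, so a level of 0 is that median, and levels of different genes are not compared.

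The comparison of the HF with the LF diet asked how transcript levels differed between feeds unlike in fat, fiber and starch. The study reports that HF pigs also ate less, ended lighter and had less fat for their weight. Here these differences cannot be told apart from the make-up of the feed. The study's limits were kept with limma: a gene was called at a raw p below 0.01, a change beyond 1.1-fold and, over all 11117 genes, a Benjamini-Hochberg adjusted p below 0.08. Of the 47 members, 8 were called by diet (17.0%), against 12.6% of all genes. The HF diet lowered 7 of them, the E2 genes *UBE2G1*, *UBE2L3* and *UBE2K*, the cullin adaptor gene *SKP1*, the F-box gene *FBXW7* and the E3 genes *UBE3A* and *MDM2*. These 7 are 14.9% of the members, against 9.35% of all genes called lower. It raised 1, the E3 gene *CBLB*, which is 2.13% of the members, against 3.27% of all genes called higher.

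The changes were small, and the strongest of the 7 decreases was 1.19-fold. In 40 of the 47 members (85.1%) the HF mean lay below the LF mean, against 62.4% of all genes. The median change of the members was -0.11 on the log2 scale and that of all genes -0.04. An unadjusted p under 0.05 was found for 22 members, 20 of them on the lower side, which is 46.8% against 26.0% of all genes. How many of the calls pointed down depended on the scaling: of all genes called, 74.1% were lower as centred here, 60.5% after quantile normalization and 48% when arrays were scaled to the 75th percentile. The members then had 7, 4 and 3 genes called lower. Under either of the other scalings 5 of the 47 members were called in all, which is no larger a share than that of all genes (11.2% with quantile normalization and 10.8% with the 75th percentile). *UBE2K*, *UBE3A* and *FBXW7* were called under neither of the other scalings, and *MDM2* not with the 75th percentile. Members whose HF mean was lower numbered 40, 35 and 37 under these settings, with medians of -0.11, -0.06 and -0.07, next to medians over all genes of -0.04, -0.02 and 0.00. With the slide as a block 10 members were called (9 lower, 1 higher), where 14.7% of all genes were called. Within the scan dates, of 24 arrays each, 4 (3 lower, 1 higher) and 2 (both lower) were called, against 5.98% and 2.37% of all genes. Array weights called 11 members and the array's median signal as a covariate 16, and the shares of all genes rose with them to 18.5% and 16.8%.

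**Figure D1:**
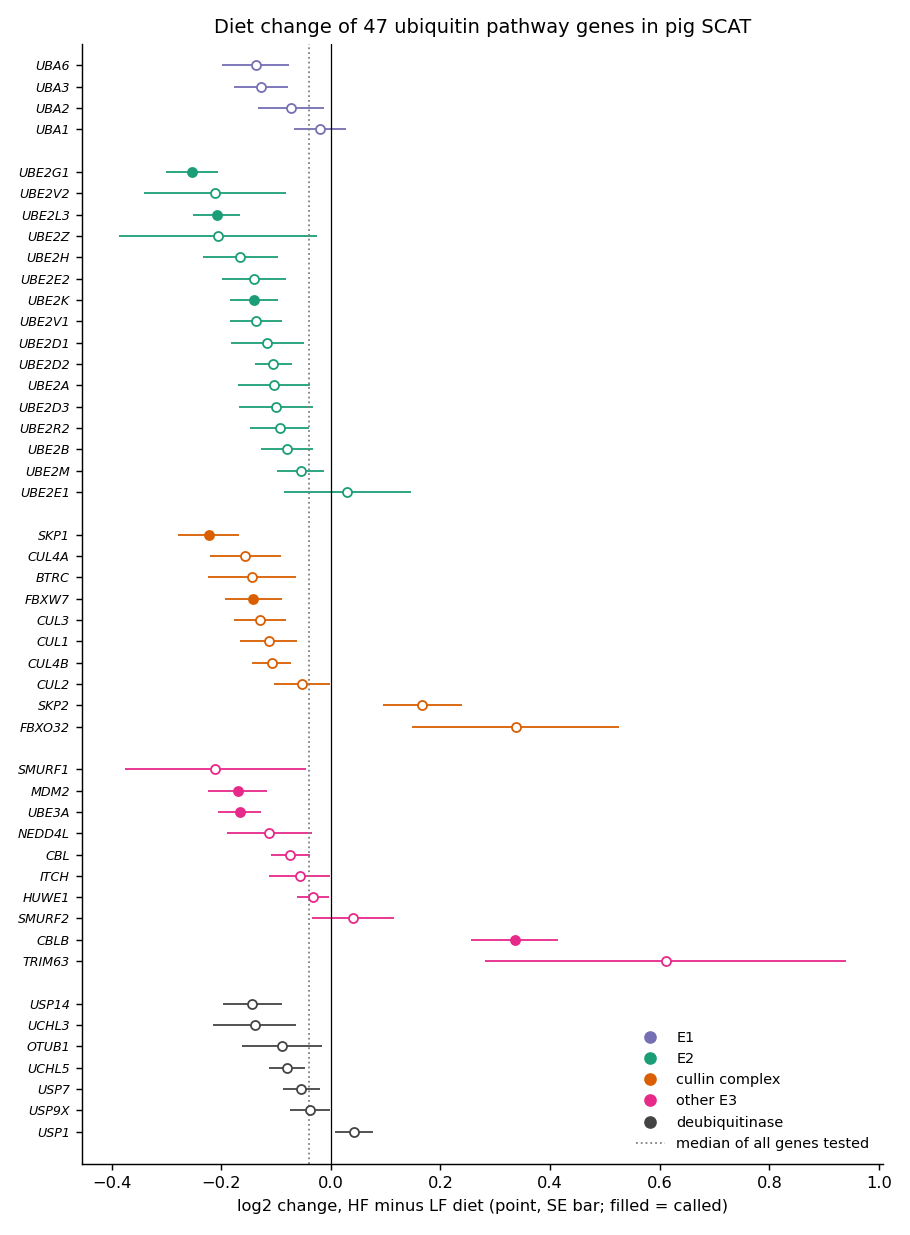
Log2 change between the diets (HF minus LF) of the 47 tested members, grouped by role, with the standard error of the limma fit as a bar. Filled points are the 8 called members, and the dotted line is the median change of all genes tested (-0.04). Most points lie left of 0, and CBLB is the only filled point to the right.

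Of the called members, *UBE2L3*, *UBE2G1*, *UBE3A* and *CBLB* were among genes that the study itself had listed from these pigs (with a further fat depot) as answering to diet, so their direction here is not independent evidence. Of 7 tested members on that list, 3 were called lower and 1 higher. Of the 40 tested members that were not on it, 4 were called lower (*SKP1*, *MDM2*, *FBXW7* and *UBE2K*) and none higher. Of all genes, 9.35% were called lower. Listed genes were taken out of the 40 but not out of all genes, so these shares cannot be set directly side by side.

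The 4 E1 genes had lower means under the HF diet, against 62.4% of all genes. None was called by limma or by the methods' analysis of variance, and 2 had an unadjusted p under 0.05 (26% of all genes). With the array's median signal as a covariate, limma called *UBA2*, *UBA3* and *UBA6* lower. The median of their changes was -0.10. *UBA6*, which can activate both ubiquitin and the ubiquitin-like protein FAT10, showed the widest difference. Its level ran from -0.55 to 0.43 (median -0.07) on the HF arrays and from -0.39 to 0.58 (median 0.04) on the LF arrays, so the diets overlapped over most of their range. The difference was -0.14 ± 0.06 (SE, limma adjusted p = 0.143). *UBA3*, a subunit of the NEDD8-activating enzyme, differed by -0.13 ± 0.05 (adjusted p = 0.0809), just outside both p limits. *UBA2*, a subunit of the SUMO E1, differed by -0.07 ± 0.06 and *UBA1*, the main ubiquitin E1, by -0.02 ± 0.05.

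Of 16 tested E2 genes, 3 were lowered by the HF diet and none was raised, where 9.35% of all genes were called lower. In 15 of the 16 the HF mean was below the LF mean, against 62.4% of all genes, and the median change was -0.13.

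*UBE2G1*, an E2 that builds lysine 48 chains and is linked to degradation of misfolded proteins at the endoplasmic reticulum, was the most significant member. Its level ran from 0.98 to 1.58 (median 1.28) on the 24 HF arrays and from 1.24 to 1.86 (median 1.55) on the 24 LF arrays. The ranges overlapped in their middle part only, since 22 of 24 LF arrays lay above the HF mean and 1 of 24 HF arrays above the LF mean. The change was -0.25 ± 0.05, or 1.19-fold lower (adjusted p = 0.000424). It was lower on each of the 6 slides, by 0.06 to 0.34, and it was the only member called in both scan dates taken alone (-0.23 and -0.28).

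*UBE2L3* (also UBCH7), the E2 of HECT and RING-between-RING ligases such as parkin, ran from 4.50 to 5.08 (median 4.85) on HF arrays and from 4.63 to 5.30 (median 5.06) on LF arrays. Again 21 of 24 LF arrays lay above the HF mean, and only 1 HF array lay above the LF mean. The gene fell by 0.21 ± 0.04 (1.16-fold lower, adjusted p = 0.00122). When every kept probe was tested, 4 probes of the gene were called lower with changes between -0.19 and -0.28, where 7.44% of all probes were called lower. The remaining, far dimmer probe was also called lower (-0.22), but whether its letters lie on the sense strand of the gene was not settled here. These probes share the RNA of the same pigs and are not replicates.

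*UBE2K* (also HIP2), an E2 that extends lysine 48 chains, ran from 4.43 to 4.97 (median 4.71) on HF arrays and from 4.56 to 5.07 (median 4.87) on LF arrays. The diets overlapped broadly, with 4 HF arrays above the LF mean and 20 LF arrays above the HF mean. The change was -0.14 ± 0.04 (adjusted p = 0.0290), close to the fold limit. A second and dimmer probe gave -0.07 (adjusted p = 0.595).

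The probes of a few members are printed as the scanner files list them, because the calls or the gene names turn on them. All are 60 bases long and open in at least 1 reading frame over their whole length. The first is the probe that carried the call of *UBE2K*. The next pair are probes of *UBE2D3*, which the array design gives under different gene names, and the capitals mark the run of 56 bases they share.

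UBE2K, brightest probe: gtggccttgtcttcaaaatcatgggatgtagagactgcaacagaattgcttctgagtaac
UBE2D3, brightest probe, listed on the array as UBE2D2: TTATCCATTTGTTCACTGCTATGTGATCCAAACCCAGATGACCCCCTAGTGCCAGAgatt
UBE2D3, probe listed on the array as UBE2D3: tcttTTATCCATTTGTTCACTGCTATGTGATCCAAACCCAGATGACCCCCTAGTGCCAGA

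*UBE2D2* and *UBE2D3* encode nearly identical E2 enzymes of the UBCH5 group, which serve a wide range of ligases. The current reference table gives the accession behind 3 probes named UBE2D2 on the array as *UBE2D3*, and they were counted there. The shared run shows that the pair of probes above read the same stretch of transcript. They gave -0.10 and -0.09 for diet, neither called. The 1 probe left to *UBE2D2* differed by -0.11 ± 0.03 (adjusted p = 0.0377).

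*UBE2D2* was 1 of 4 members that passed both p limits but not the fold limit. The others were *UBE2V1* (-0.14 ± 0.05, adjusted p = 0.0496), an inactive E2-like partner of UBE2N, *CUL3* (-0.13 ± 0.05, adjusted p = 0.0669) and *CUL4B* (-0.11 ± 0.04, adjusted p = 0.0392). *UBE2V1* sat at the fold limit itself. Its 2 probes share all 60 bases and are the same measurement made again (-0.14 and -0.12). Identical or overlapping probes also stood for *UBE2D1*, *UBE2A*, *UBE2E2*, *CBL*, *UCHL3* and *UCHL5*, while no 2 probes of different members shared 20 bases or more. *UBE2V2*, the paralog of *UBE2V1*, differed by -0.21 but with a standard error of 0.13 (adjusted p = 0.306), and *UBE2Z*, the E2 paired with UBA6, by -0.21 ± 0.18. The probe of *UBE2Z* was well above background on only 6 to 9 of the 12 arrays of each group, so its values lie near background. *UBE2E1* alone had a higher HF mean (0.03 ± 0.12). *UBE2H* and *UBE2E2* differed by -0.17 and -0.14 (adjusted p = 0.115 and 0.111), and *UBE2E2* was called lower with the slide or the scan date as a block. *UBE2D1*, *UBE2A*, *UBE2D3* and *UBE2R2* differed by -0.09 to -0.12. *UBE2M*, the E2 of NEDD8, differed by -0.06 ± 0.04, and *UBE2B*, an E2 of DNA repair, by -0.08 ± 0.05.

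Cullin ligases are scaffolds on which an adaptor and a substrate receptor meet the E2. Of 10 tested genes of these complexes, *SKP1* and *FBXW7* were lowered by the HF diet and none was raised, where 9.35% of all genes were called lower. The median change was -0.12, and 8 of the 10 means were lower, against 62.4% of all genes.

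*SKP1*, the adaptor that links CUL1 to F-box proteins, ran from 4.39 to 5.32 (median 5.02) on HF arrays and from 4.88 to 5.53 (median 5.27) on LF arrays. Of the LF arrays 20 lay above the HF mean, and 1 HF array lay above the LF mean. It fell by 0.22 ± 0.06 (1.17-fold lower, adjusted p = 0.00591) and was lower on all 6 slides.

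*FBXW7*, the F-box receptor of cyclin E, MYC and SREBP proteins, ran from 2.50 to 3.08 (median 2.75) on HF arrays and from 2.29 to 3.22 (median 2.92) on LF arrays. The lowest array of all was an LF array, although 19 LF arrays lay above the HF mean. The change was -0.14 ± 0.05 (adjusted p = 0.0694), the highest adjusted p of the 8 calls, and it was not called under either other scaling (adjusted p up to 0.369 over 17 alternatives). With the array's median signal as a covariate it shrank to -0.08 (adjusted p = 0.243) and was not called. Its second probe gave -0.14 (adjusted p = 0.0988).

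None of the 5 tested cullin scaffolds was called by limma as fitted here, with differences from -0.05 (*CUL2*) to -0.16 (*CUL4A*, SE 0.07), and the F-box gene *BTRC*, receptor of IKB and beta-catenin, differed by -0.14 ± 0.08. *CUL4A*, the scaffold that takes receptors through DDB1, had 2 probes whose letters lie on opposite strands over 53 bases. The brighter one gave -0.16 and the other -0.00, so the value of this gene rests on the probe chosen. *CUL4A* was called lower with array weights, and *CUL1* and *CUL3* with the array's median signal as a covariate. *SKP2*, the F-box receptor of the cell cycle inhibitor p27, had a higher HF mean (0.17 ± 0.07, adjusted p = 0.129). Of 17 alternatives, it was called under scaling to the 75th percentile only.

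Of 10 tested genes of other E3 ligases, *UBE3A* and *MDM2* fell and *CBLB* rose under the HF diet. Of all genes, 9.35% were called lower and 3.27% higher. The median change was -0.07.

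*CBLB*, a RING ligase that restrains receptor tyrosine kinase and T cell signalling, ran from 0.54 to 1.55 (median 1.31) on HF arrays and from 0.30 to 1.46 (median 0.92) on LF arrays. The diets overlapped, but 22 of 24 HF arrays lay above the LF mean and 3 LF arrays above the HF mean. The change was 0.34 ± 0.08 (1.26-fold higher, adjusted p = 0.00435), and it was positive on all 6 slides. The paralog *CBL* differed by -0.07 ± 0.04 (adjusted p = 0.179). The *CBLB* probe was tied to the gene through an expressed-sequence accession, with no gene name on the array.

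*UBE3A* (also E6AP), the founding HECT ligase, ran from 4.13 to 4.54 (median 4.27) on HF arrays and from 4.17 to 4.78 (median 4.43) on LF arrays. Of the LF arrays 21 lay above the HF mean, and 2 HF arrays lay above the LF mean. The gene fell by 0.17 ± 0.04 (1.12-fold lower, adjusted p = 0.00335). Its probes disagreed, since 2 dimmer ones gave -0.11 and 0.02 and were not called, and the mean of the 3 was not called either. The probe that carried the call reads as follows.

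UBE3A, brightest probe: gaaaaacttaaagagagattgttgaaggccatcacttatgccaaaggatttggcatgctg

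*MDM2*, the RING ligase of p53, ran from -1.36 to -0.58 (median -1.11) on HF arrays and from -1.29 to -0.45 (median -0.94) on LF arrays. The ranges nearly coincided, with 20 LF arrays above the HF mean and 2 HF arrays above the LF mean. It fell by 0.17 ± 0.05 (1.13-fold lower, adjusted p = 0.0339) and was lower on 5 of 6 slides.

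The HECT ligases of the NEDD4 family and *HUWE1* were not called. *SMURF1*, which targets SMAD proteins and RHOA, differed by -0.21 ± 0.17, the widest value with the widest error. *SMURF2*, *NEDD4L*, *ITCH* and *HUWE1* lay between -0.11 and 0.04.

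**Figure D2:**
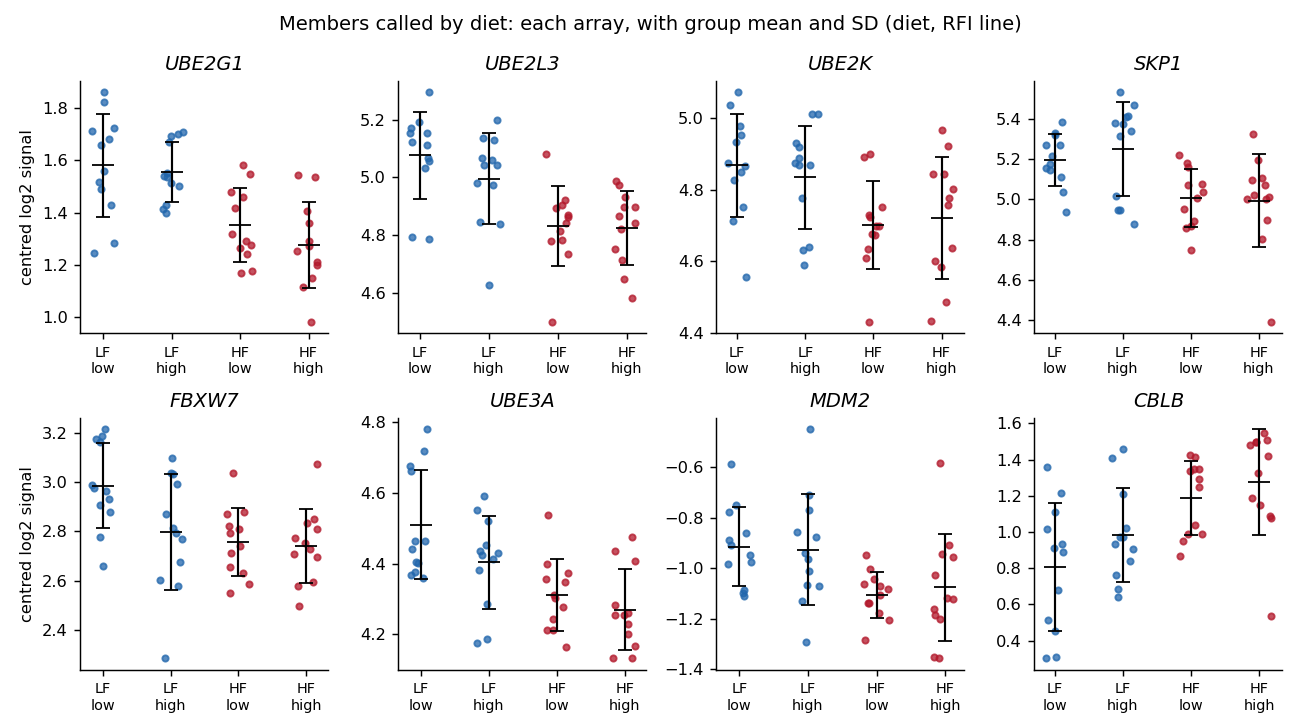
Centred log2 signal of the 8 members called by diet on each of the 48 arrays, by diet and RFI line (blue LF, red HF), with the mean and SD of each group of 12. The HF points of 7 genes sit lower than the LF points with overlapping ranges, and those of CBLB sit higher.

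None of the 7 deubiquitinase genes was called by diet with limma, 2 had an unadjusted p under 0.05 (26% of all genes), and the methods' analysis of variance called 1 (*USP14*). In 6 of 7 the HF mean was lower, against 62.4% of all genes, and the median change was -0.08. *USP14*, a deubiquitinase bound to the proteasome, had the widest difference. It ran from 0.85 to 1.35 (median 1.07) on HF arrays and from 0.85 to 1.70 (median 1.23) on LF arrays, the lowest values being alike. The difference was -0.14 ± 0.05 with an adjusted p of 0.0772, but its raw p of 0.0111 missed the first limit. *USP14* was called in 5 of 17 alternatives, among them slide or scan date as a block. With the array's median signal as a covariate its difference shrank to -0.07 (adjusted p = 0.282). It was -0.08 in the first scan date alone (adjusted p = 0.579) and -0.205 in the second (adjusted p = 0.135). *UCHL5*, which also sits on the proteasome, differed by -0.08 ± 0.03 (adjusted p = 0.109), *UCHL3* by -0.14 ± 0.08 and *OTUB1*, a deubiquitinase that also inhibits UBE2N, by -0.09 ± 0.07. *USP7*, which stabilises MDM2, and *USP9X* and *USP1* lay between -0.05 and 0.04.

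*FBXO32* (atrogin-1, an F-box protein) and *TRIM63* (MuRF1, a RING ligase) are best known from wasting skeletal muscle, where FOXO factors raise both. They had the highest HF to LF ratios of the members with *CBLB*, without being called. *FBXO32* ran from 0.91 to 4.02 (median 2.66) on HF arrays and from 0.93 to 3.23 (median 2.38) on LF arrays. The difference was 0.34 ± 0.19 (adjusted p = 0.257), and its 5 probes gave 0.26 to 0.41, none called. *TRIM63* ran from -4.80 to 0.72 (median -1.83) on HF arrays and from -4.78 to -0.30 (median -2.56) on LF arrays. The difference was 0.61 ± 0.33 (adjusted p = 0.235). Taken by scan date, it was 1.15 ± 0.42 in the first (adjusted p = 0.127) and 0.08 ± 0.44 in the second (adjusted p = 0.956), and the HF mean of *TRIM63* was higher on 4 of 6 slides. In low RFI pigs taken alone, both genes were called higher with array weights (10.6% of all genes called) and *FBXO32* with the array's median signal as a covariate (7.31%).

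Both genes varied more between pigs than any other member. Their SDs within groups were 0.68 for *FBXO32* and 1.19 for *TRIM63*, the next being 0.64 for the dim *UBE2Z*, while the median over the members was 0.19 and that over all genes 0.27. A second, dimmer probe of *TRIM63* was well above background on 17 of 24 HF arrays but only 10 of 24 LF arrays, so no difference is given for it.

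The levels of the 2 genes moved together across pigs. After subtraction of each group's mean, Pearson's r was 0.61 and Spearman's rho 0.57 over the 48 arrays (permutation test within groups, two-sided, p = 2e-05 and 9e-05, adjusted p = 0.0001 and 0.00045 over 5 pairs). The relation held without the 2 arrays farthest from the median of *FBXO32* (r = 0.62) and after slide means were also removed (r = 0.58). With the replicate number as a block it was still called but weaker (r = 0.45, rho = 0.41, adjusted permutation p of r = 0.0049). Without the 2 farthest arrays r was then 0.38. It was 0.44 and not called in the first scan date (adjusted p = 0.128) and 0.76 in the second (adjusted p = 0.00085), with 24 arrays each. The summed level of 10 skeletal muscle markers had group medians between 5.64 and 5.76 and ranged from 5.36 to 7.16 over all arrays, and the HF mean of each of the 10 was below the LF mean. After subtraction of group means, that sum correlated with *FBXO32* by r = 0.20 (rho = 0.11, permutation p = 0.164 and 0.441) and with *TRIM63* by r = 0.27 (rho = 0.20, permutation p = 0.0918 and 0.195). Adjusted over the 2 relations, the permutation p of r was 0.164 for both. Without the 2 arrays farthest from the median of the marker sum, r was 0.11 and 0.05.

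**Figure D3:**
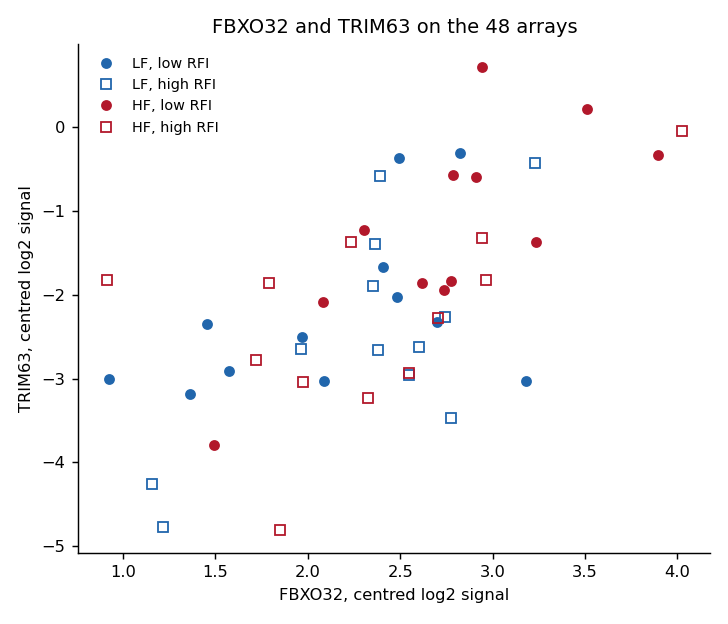
Centred log2 signal of FBXO32 (horizontal) and TRIM63 (vertical) on the 48 arrays, by diet (blue LF, red HF) and line (filled low RFI, open high RFI). The points rise together (r = 0.61 after subtraction of group means), and all groups are spread over most of the range.

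Of 10 listed pairs whose products bind or act together, 5 could be tested across pigs in the same way. *CUL1* with *SKP1* reached r = 0.37 (rho = 0.35, permutation p = 0.0219, adjusted p = 0.0364), and *USP14* with *UCHL5* also r = 0.37 (rho = 0.32, permutation p = 0.0153, adjusted p = 0.0364). By Spearman's rho both had an adjusted permutation p of 0.0520. Without the 2 farthest arrays r was 0.40 and 0.35. After slide means were also removed, r was 0.30 and 0.32, and neither pair was called (adjusted permutation p = 0.0879 for both). For *CUL1* with *SKP1*, r was -0.16 in the first scan date (0.16 without its 2 farthest arrays) and 0.47 in the second, where the adjusted permutation p was 0.0718 for r and 0.0476 for rho. That pair also varied with the scaling and background correction, from r = 0.09 after quantile normalization and 0.15 with scaling to the 75th percentile to 0.48 in the deposited table and 0.54 with normexp, and it was not called in the first 2 of these settings (adjusted permutation p = 0.615 and 0.647). For *USP14* with *UCHL5*, r was 0.29 in each scan date (adjusted permutation p = 0.398 and 0.337), and it ranged from 0.15 with normexp background correction, where it was not called (adjusted permutation p = 0.415), to 0.62 after quantile normalization. *SKP1* with *SKP2* (r = 0.16, permutation p = 0.337) and *UBA3* with *UBE2M* (r = 0.19, permutation p = 0.204) were not called.

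No member was called by line with limma or with the methods' analysis of variance, against 1.21% of all genes by limma. An unadjusted p under 0.05 was found for 3 of 47 members, where 10.2% of all genes had one. In 34 members the mean was higher in low RFI pigs, and the median difference (low minus high RFI) was 0.03, next to 0.02 over all genes.

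The 3 smallest p-values belonged to *UBE2V1*, *CUL1* and *CUL4A*, each higher in low RFI pigs. *UBE2V1* ran from 2.92 to 3.54 (median 3.25) in low RFI and from 2.77 to 3.44 (median 3.12) in high RFI pigs, and 21 of the 24 arrays of low RFI pigs exceeded the mean of high RFI pigs. The difference was 0.16 ± 0.05 (adjusted p = 0.0996). It lay just outside the adjusted limit and was called in 8 of 17 alternatives, among them slide as a block, where it was the 1 member called and 2.02% of all genes were called, a like share. Its other probe, with the same bases, was called higher in low RFI pigs when every kept probe was tested (0.16, adjusted p = 0.0679), where 0.809% of probes were called higher. *CUL1* ran from 4.52 to 5.15 (median 4.84) in low RFI and from 4.32 to 5.14 (median 4.65) in high RFI pigs, a difference of 0.14 ± 0.05 (adjusted p = 0.247). Of 17 alternatives it was called in 1, with the replicate number as a block (0.14 ± 0.04, adjusted p = 0.0521). There 2.6% of all genes were called. *CUL4A* ran from -2.50 to -1.54 (median -2.02) and from -2.65 to -1.95 (median -2.18), a difference of 0.17 ± 0.07 (adjusted p = 0.261) that its probe on the opposite strand put at -0.06.

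No member, and none of the 11117 genes, was called for the interaction between diet and line by limma or by the methods' analysis of variance. An unadjusted limma p under 0.05 was found for 99 genes (0.891%), none of them a member. Taken within low RFI pigs, the HF diet lowered *UBE2G1*, *UBE2L3* and *UBE3A* and raised *CBLB*, 4 of 47 members against 2.48% of all genes. Within high RFI pigs, it lowered *UBE2G1* alone, against 1.51% of all genes. With the position on the slide as a block no member was called in either line. The shares of all genes were then 0% in low and 0.351% in high RFI pigs. With no interaction called, these counts do not show that the lines differed. In 37 members the HF mean was lower in both lines, in 6 it was higher in both, and in 4 the directions differed. The share of all genes lower in both lines was not counted. The median change over all genes was also below 0, at -0.035 in low and -0.045 in high RFI pigs.

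The members nearest to an interaction were *USP7*, *FBXO32* and *FBXW7*. The median of *USP7* was 4.27 in HF low RFI, 4.38 in LF low RFI, 4.37 in HF high RFI and 4.38 in LF high RFI pigs, and its HF minus LF value was -0.12 in low and 0.01 in high RFI pigs, a difference of -0.13 ± 0.07 (limma, unadjusted p = 0.0623). That of *FBXO32* was 2.78, 2.25, 2.28 and 2.38 in the same order, with HF minus LF values of 0.65 and 0.02 and a difference of 0.63 ± 0.38 (unadjusted p = 0.103). *FBXW7* had medians of 2.77, 2.97, 2.74 and 2.81, with HF minus LF values of -0.23 and -0.06 and a difference of -0.17 ± 0.11 (unadjusted p = 0.104). All 3 adjusted p-values were 1 after rounding. The difference of *USP7* shrank to -0.05 in the deposited table and with normexp and to -0.07 with the mean of its probes. That of *FBXO32* reached 1.11 with the array position as a block, but the groups were not spread evenly over the positions. That of *FBXW7* was -0.27 in the first scan date and -0.08 in the second.

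**Figure D4:**
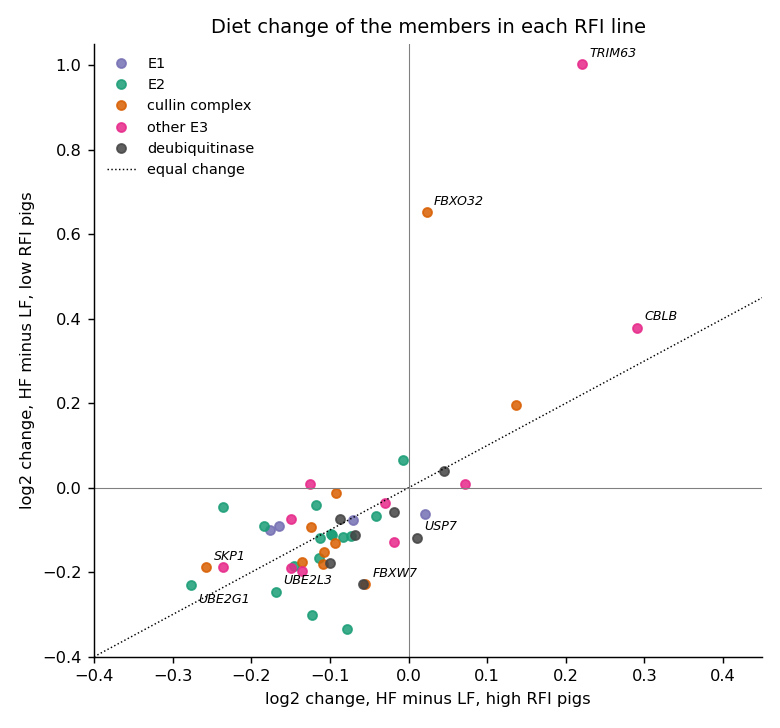
Log2 change between the diets (HF minus LF) of the 47 members in high RFI pigs (horizontal) and low RFI pigs (vertical), coloured by role, with a dotted line of equal change. The axes have different scales. In 37 members the change is negative in both lines (the share of all genes was not counted). TRIM63 and FBXO32 lie highest above the line of equal change, with no interaction called.

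Of 207 further genes of the ubiquitin system, 165 were tested, and the HF diet lowered 25 and raised 4 of them, against 9.35% and 3.27% of all genes (medians of -0.06 for these genes and -0.11 for the members). The widest decreases were *UCHL1*, a deubiquitinase of neurons and endocrine cells (-0.86 ± 0.25, adjusted p = 0.0174), *FZR1*, an activator of the anaphase-promoting complex (-0.37 ± 0.06, adjusted p = 5.3e-05), and the HECT ligase *UBE3B* (-0.28 ± 0.09, adjusted p = 0.0330). The widest increases were the deubiquitinase *USP32* (0.41 ± 0.09, adjusted p = 0.00124), the CUL3 receptor *KLHL2* (0.26 ± 0.05, adjusted p = 0.000427) and the cullin exchange factor *CAND2* (0.21 ± 0.08, adjusted p = 0.0670). By role, 4 of 16 other E2 genes fell, 3 of 8 genes of the p97 segregase and its shuttle factors fell, and 3 of 43 other deubiquitinase genes fell while 1 rose. In the cullin and COP9 signalosome list 4 of 22 fell and 2 rose. Several of these genes were on the study's own list as well, so they are not independent of it. By line, 3 of the 165 were called, each higher in low RFI pigs, against 1.21% of all genes.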

How the data were processed

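Transcript levels were measured in SCAT of 48 pigs with 1-colour (Cy3) porcine arrays of 8 per slide, 1 array per pig. Per the file headers, Agilent Feature Extraction 10.7.3.1 had subtracted the background to give each spot's processed intensity on a linear scale. A table of log2 intensities, which the authors had deposited as well, held 38987 probes, and it was used as an alternative. All 48 of its columns matched, within 0.001, the log2 median brightness of the spots less the array's median, with no background subtraction. R 2.10.0 is named in the submitters' processing notes. Nothing was left out by column: 0 sample columns had no sample.

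Control spots (1319) and flagged spots (227 over all arrays) were left out, and no spot was saturated. Probes well above background on 9 of 12 arrays of a group (44356 probes) were kept, and log2 signals were centred on each array's median over them. Symbols came from the Sscrofa11.1 gene tables and the array's names, with 27384 of 60305 probes named, and the brightest kept probe stood for a gene. Genome positions were not used here. Diet, line and their interaction were fitted with limma 3.58.1 (lmFit and a trended eBayes) under R 4.3.3 with two-sided tests, for all 11117 genes or all kept probes, where the study's methods used a two-way analysis of variance. On simulated data for the diet comparison, with 50 changed genes per size among 11117 genes, 48% were called at a log2 change of -0.25 and 86% at -0.5. These rates need not hold for the members. Fewer genes were changed there than were called in the real data, and the changed genes were drawn from all genes, whose spread was wider (median SD 0.268 against 0.187).

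Groups and replicate numbers came from the sample titles, and each group had 2 arrays on every slide. The positions within a slide were not shared evenly by the groups. Members get full values where called by diet or line, or where they had the widest diet change of a class with no call or 1 of the 3 smallest raw p-values for line or interaction. Other pathway genes are named where called by diet with 1 of the 3 widest changes in a direction, and further names were picked with their values known. The members, lists and pairs were chosen with earlier results of these data known. Pairs were tested by permutation within groups (100000 resamples), with Benjamini-Hochberg adjustment over 5 pairs. Alternatives covered scaling, background correction, filter, probe choice, blocks, array weights, test and scan date. The protein and promoter sequences planned for display are not used here. Some genes of the wider pathway lists are not reported here.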

Additional observations from a re-analysis of the deposited data

How the results depend on the processing

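Of the 272 values of named genes under the alternatives, 230 kept their direction and call, 27 lost the call, 15 gained one and none changed sign. *UBE2G1* was called by diet in all 17 alternatives, and *UBE2L3*, *SKP1* and *CBLB* in 16, the exception being the second scan date alone. *UBE3A* was called in 13, *MDM2* in 11, and *FBXW7* and *UBE2K* in 10.

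The 8 members called by diet became 5 with 75th percentile scaling, 5 with quantile normalization, 5 with normexp on the mean signal (10.8%, 11.2% and 10.8% of all genes, so the members' share was no longer above that of all genes), 16 (6 of the 8 among them, with *CUL1*, *CUL3*, *UBA2*, *UBA3*, *UBA6*, *UBE2A*, *UBE2D3*, *UBE2E2*, *UBE2V1* and *UCHL3* added) with the array's median signal as a covariate, 4 in the first scan date alone and 2 in the second. In place of 0 by line there was 1 with 75th percentile scaling (1.12% of all genes), quantile normalization (1.35%), the mean of all kept probes (1.31%), slide block (2.02%), scan date block (1.84%), array weights (4.32%) or the median signal as a covariate (1.38%). In low RFI pigs the 4 became 2 with 75th percentile scaling (1.72% of all genes), 1 with quantile normalization (1.52%), 11 with array weights, 10 with the median signal as a covariate, and 0 with the position on the slide as a block or in either scan date alone. In high RFI pigs the 1 became 2 with the mean of all kept probes (1.59% of all genes), 3 with slide or scan date as a block (3.74% and 2.65%), 6 with array weights, 4 with the median signal as a covariate, and 0 with 75th percentile scaling, the position block or either scan date alone. The shares of all genes moved too, in low RFI pigs from 2.48% to 10.6% with array weights, 7.31% with the covariate and 0% with the position block, and in high RFI pigs from 1.51% to 6.25%, 4.33% and 0.351%, with 1.11% under 75th percentile scaling. In the first scan date alone they were 0.018% in low and 0.873% in high RFI pigs, and in the second 0% in both. No member was called for the interaction under any alternative run. The cause of these shifts was not tested. A scan date alone has 24 arrays in place of 48. The groups did not share the positions on the slide evenly, so the position block overlaps in part with the contrasts between groups.

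The titles number the pigs 1 to 12 in each group, and same-numbered arrays lay on the same slide. Their deviations from the group means correlated by 0.16 on average, against -0.014 for arrays of other numbers. For arrays of the same slide, same-numbered ones included, the mean was 0.13. Of the 72 same-number pairs 45 exceeded 0.1, and 18 of 48 arrays correlated best with their own number. Same-numbered arrays were thus more alike than others, but what the numbers stand for is not given. They were not taken as a pairing in the main fit. With the replicate number as a block, 10 members were called by diet, 2 by line (*CUL1* and *UBE2V1*), 7 by diet in low RFI pigs and 5 in high RFI pigs. The shares of all genes were 15.2%, 2.6%, 5.97% and 4.52%.

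Of the partner pairs, the 3 called became 1 in the deposited table (where *FBXO32* with *TRIM63* could not be tested), 0 in the first scan date, 1 in the second, 1 after slide means were removed, and 2 with 75th percentile scaling, quantile normalization or normexp, and stayed 3 with the replicate block. The sign turned for *UBA3* with *UBE2M* (-0.08 with quantile normalization, -0.17 in the second scan date), *SKP1* with *SKP2* (-0.061 with normexp, -0.071 in the deposited table) and *CUL1* with *SKP1* (-0.16 in the first scan date). With the replicate block, *CUL1* with *SKP1* had r = 0.41 (adjusted permutation p = 0.0145) but rho = 0.30 (adjusted permutation p = 0.0838). Without its 2 farthest arrays r was then 0.25. The number of arrays limits the precision.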

Other observations

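Outside the members, *UBB*, a polyubiquitin gene, rose under the HF diet by 0.19 ± 0.06 on the log2 scale (limma adjusted p = 0.0209), while *UFM1*, a ubiquitin-like modifier, fell by 0.21 ± 0.05 (adjusted p = 0.00288). Among genes of the p97 segregase and its shuttle factors, *RAD23B* (-0.24), *VCP* (-0.18) and *NPLOC4* (-0.22) fell. The HF mean of all 8 tested was lower, against 62.4% of all genes.

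By line, *TRIM25*, an E3 ligase of antiviral signalling, was 0.60 higher on the log2 scale in low RFI pigs (limma adjusted p = 0.000607). *USP33*, a deubiquitinase, was 0.35 higher (adjusted p = 0.0260). These names were chosen after their values were seen.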
